A study of Mus musculus with 9 samples.

Results

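Expression of the Hoxa cluster was followed across 3 genotypes of mouse CEpiLCs, caudal epiblast-like cells grown in culture as a model of the progenitors that lay down the trunk. The account covers 9 of the 24736 genes in the deposited table, chosen by symbol: Hoxa2, Hoxa3, Hoxa4, Hoxa5, Hoxa6, Hoxa7, Hoxa9, Hoxa10 and the antisense transcript Hoxaas3. The choice used position in the cluster and no measured value. In CEpiLCs lacking the CDX factors, Hoxa3, Hoxa5 and Hoxaas3 were lower than in wild type (WT), Hoxa2 was not called, and no member was called different between T/BraKO and WT.

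Hox genes encode homeodomain transcription factors that give cells their position along the head to tail axis. They lie in 4 clusters, and within a cluster the genes at the 3′ end are generally switched on earlier and further forward than those at the 5′ end, an order known as collinearity. WNT and FGF signalling open the clusters in the posterior epiblast, and the caudal-related factors CDX1, CDX2 and CDX4 are known activators of the central, trunk-expressed Hox genes. T, also called Brachyury or BRA, is a T-box factor of the primitive streak and the forming mesoderm.

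The libraries came from 9 cultures, 3 biological replicates of each genotype, all differentiated from lines derived from HM1 TetON, a male mouse embryonic stem cell line that carries a doxycycline-responsive transactivator and served as WT. CdxKO cells were mutant for all 3 Cdx genes (Cdx1, Cdx2, Cdx4), and T/BraKO cells were mutant for T. The sources used here name no independent clones of either mutant, so a genotype stands for its line. Stem cells were propagated on fibroblast feeders, and all 9 cultures then received N2/B27 medium for 2 days with bFGF (10 ng per ml) and the Porcupine inhibitor LGK974 (5 uM), which stops cells from secreting WNT. The GSK3 inhibitor CHIR99021, which switches on the WNT response, was then present until the cells were collected at 72 h, on day 3.

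Libraries held between 25124337 and 34705355 expected counts. T was lower in T/BraKO (2295 ± 563 normalised counts, SD, n = 3) than in WT (12243 ± 2181), and Cdx4 was almost absent from CdxKO (1.64 ± 0.338 against 118 ± 52.2). Cdx1 and Cdx2 transcripts remained in CdxKO, at 272 ± 68.7 and 1031 ± 515. The caudal epiblast marker Nkx1-2 was present in every library, between 4902 and 11263 normalised counts. Of 12 caudal epiblast markers, which include T and the Cdx genes, DESeq2 called 5 lower and 0 higher in CdxKO than in WT. In T/BraKO 3 were lower and 2 higher than in WT. With the replicate number in the model, 7 were lower and 0 higher in CdxKO, and 3 lower and 6 higher in T/BraKO. In that model Nkx1-2 was lower in CdxKO (log2 fold change -0.27, SE 0.06) and higher in T/BraKO (0.45, SE 0.06). Feeder fibroblast markers were detected too. Their summed level, in counts scaled to the library total (CPM), was 110 to 168 in the WT libraries, 133 to 236 in those of CdxKO and 95.6 to 137 in those of T/BraKO. Of the 10 markers Col1a1 ranged from 353 to 2952 normalised counts over the libraries and Fbln1 from 1455 to 1878, while Mgp did not exceed 3.76.

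The 8 coding members lay on the minus strand of mouse chromosome 6 (GRCm38, the mm10 assembly) and ran from Hoxa2 at 52162417 to 52164831, nearest the 3′ end, to Hoxa10 at 52231197 to 52240854. Hoxaas3 lay on the plus strand between 52175217 and 52215076 in the GENCODE annotation and between 52201124 and 52213597 in RefSeq. It runs antisense through Hoxa5 and Hoxa6, and its exons shared 297 bases with exons of Hoxa3 and 586 bases with exons of Hoxa7 in GENCODE. The longest transcripts of Hoxa3 start upstream of Hoxa6, so that its introns contain Hoxa4, Hoxa5 and Hoxa6 on the same strand. The reads were strand-specific and counted as such. A read shared between genes can leave a fractional estimate, and 0 of the 81 member values departed from a whole number (tolerance 0), against 3.75% to 4.00% of the values of all genes per library.

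Sequences upstream of the start site are shown for Hoxa2, which was not called between genotypes, for Hoxa5, which was, and for Hoxa7, the member with matches to the CDX motif. They are RefSeq sequences of GRCm38.p6, read on the minus strand, and 7 of the 9 members had an entry. In Hoxa2 the capitals mark a HOX-PBX match, in Hoxa7 they mark CDX matches, and Hoxa5 held no match. For Hoxa7 only the bases upstream of an annotated untranslated exon are given.
Hoxa2, chr6:52164832-52165081: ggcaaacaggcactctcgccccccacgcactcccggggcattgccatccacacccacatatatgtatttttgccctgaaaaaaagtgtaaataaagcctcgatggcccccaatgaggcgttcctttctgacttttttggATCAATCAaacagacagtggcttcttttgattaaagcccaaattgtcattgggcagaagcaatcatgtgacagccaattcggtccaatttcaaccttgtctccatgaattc
Hoxa5, chr6:52204588-52204837: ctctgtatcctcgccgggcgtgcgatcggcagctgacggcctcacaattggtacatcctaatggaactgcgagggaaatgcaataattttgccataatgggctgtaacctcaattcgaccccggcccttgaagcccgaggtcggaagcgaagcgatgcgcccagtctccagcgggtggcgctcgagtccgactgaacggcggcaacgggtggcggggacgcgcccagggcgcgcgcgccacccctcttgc
Hoxa7, chr6:52218712-52218823: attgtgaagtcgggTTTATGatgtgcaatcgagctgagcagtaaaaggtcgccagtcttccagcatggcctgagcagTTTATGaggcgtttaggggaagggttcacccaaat

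Motifs were searched on both strands of windows of 300 bases, 250 before and 50 after the start. The CDX motif was TTTATG or TTTATTG and occurred in 1 of the 7 members, Hoxa7, against 15.6% of all 32851 promoter windows. Both Hoxa7 matches read TTTATG, and they began 236 and 173 bases before the start. The HOX-PBX motif TGATNNAT was found in Hoxa2 alone, 111 bases before the start, against 8.85% of all windows. The T-box motif AGGTGT (13.7% of windows) and the TCF/LEF motif CTTTGA (16%) occurred in 1 of the 2 Hoxa10 windows, and in no window of the other 6 members. No matches of different motifs overlapped in these windows. A match describes the letters, and no binding was measured.

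In WT CEpiLCs the 5′ genes Hoxa9 and Hoxa10 had the lowest mean levels of the members with a count. The means of the other members did not follow their order along the cluster. In TPM, a level corrected for transcript length, Hoxa3 stood at 6.27 ± 4.21 (SD, n = 3), Hoxaas3 at 5.94 ± 6.60 and Hoxa2 at 2.34 ± 1.60. Hoxa5 reached 1.28 ± 0.997 TPM, Hoxa7 0.703 ± 0.616 and Hoxa4 0.640 ± 0.596. The 5′ genes Hoxa9 and Hoxa10 stood at 0.100 ± 0.106 and 0.0333 ± 0.0306 TPM, and Hoxa6 was 0. Every neighbour in this order of mean TPM overlapped the one above it, because the replicates of a genotype differed several-fold.

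The same order of mean TPM held in T/BraKO, from Hoxa3 at 6.44 ± 4.08 through Hoxaas3 at 5.43 ± 5.35 and Hoxa2 at 2.84 ± 1.27 to Hoxa10 at 0.110 ± 0.0625. In CdxKO the order was different. Hoxa2 led at 1.74 ± 0.834 TPM, its 3 libraries (1.25 to 2.70) lying above all libraries of Hoxa3 (0.16 to 0.74 TPM), and Hoxaas3 was at 0. These are bulk levels, so that fewer expressing cells and less RNA per cell cannot be told apart.

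**Figure D1:**
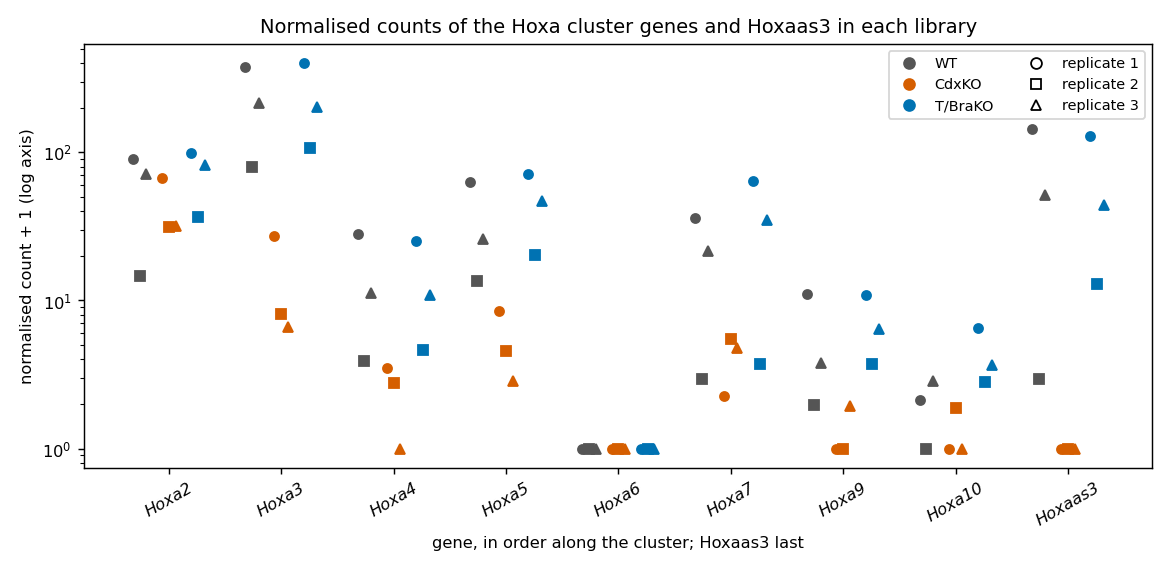
Normalised counts (plus 1, logarithmic axis) of each member in the 9 libraries, by genotype (colour) and replicate number (symbol). The 3 CdxKO libraries lie below the WT and T/BraKO libraries for Hoxa3, Hoxa4, Hoxa5, Hoxa9 and Hoxaas3, and overlap them for Hoxa2. For Hoxa9 the closest WT and CdxKO libraries held 1 count each.

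Of the coding members, Hoxa3 and Hoxa5 were called lower in CdxKO. The other coding members 5′ of Hoxa2 had fewer WT counts than these, and whether the calls follow position along the cluster was not tested. Between CdxKO and WT, 3 of the 8 members with an adjusted p were called lower and 0 higher, by the Wald test of DESeq2 at an adjusted p of at most 0.05. Of all 16737 genes tested, 0.358% were called lower. The calls were Hoxa3, Hoxa5 and Hoxaas3, and 6 of the 8 had an unadjusted p under 0.05. The median log2 fold change of the 8 members was -3.13, also with Hoxaas3 set at its bound, beside -0.0023 over all genes tested.

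Hoxa3, an anterior paralogue expressed from the hindbrain backwards, showed the lower level in CdxKO most clearly. It gave 376, 78.3 and 214 normalised counts in WT replicates 1, 2 and 3, and 26.3, 7.14 and 5.64 in CdxKO. The lowest WT library was above the highest CdxKO library. The log2 fold change was -4.12 (SE 0.85, adjusted p = 5.67e-04, DESeq2), a level 17.4-fold lower. The size moved with single libraries, from 11.5-fold lower without WT replicate 1 to 34.8-fold lower without CdxKO replicate 1.

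Hoxa5, which is needed for cervical and upper thoracic identity and for lung development, followed with lower counts. WT libraries held 61.9, 12.6 and 25.2 normalised counts and CdxKO libraries 7.52, 3.57 and 1.88, without overlap. Its log2 fold change was -2.98 (SE 0.80, adjusted p = 0.0322, DESeq2), and it was -2.18 without WT replicate 1 and -3.59 without CdxKO replicate 1.

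Hoxaas3, the noncoding transcript opposite Hoxa3, Hoxa5 and Hoxa6 in RefSeq, was not detected in CdxKO. It had 127, 2 and 54 counts in WT and 0 in each CdxKO library, which allows up to 3 counts per library, or 0.0893 to 0.119 CPM. Against that limit the WT mean was at least 21.1-fold higher (adjusted p = 0.00653, DESeq2), and without WT replicate 1 at least 8.47-fold. WT replicate 2 was itself under the limit. Floors and intervals on counts cover counting error only.

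Hoxa2, which patterns the second branchial arch and the hindbrain, was not called. It gave 88.9, 13.5 and 69.9 normalised counts in WT and 66.5, 30.4 and 31.0 in CdxKO, and the groups overlapped. The lowest of these 6 values was a WT library. Its log2 fold change was -0.44 (95% interval -1.68 to 0.81, adjusted p = 1.00, DESeq2).

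The remaining coding members had few reads. Hoxa4 had 24, 3 and 11 counts in WT and 2, 2 and 0 in CdxKO, and its estimate on the log2 scale was -3.27 (SE 1.22, adjusted p = 0.427, DESeq2). Hoxa7, a trunk gene, had 31, 2 and 22 counts in WT and 1, 5 and 4 in CdxKO, a difference of -2.56 (SE 1.14, adjusted p = 0.736, DESeq2). The Hoxa7 groups overlapped because WT replicate 2 was as low as CdxKO.

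Hoxa9, a gene of the posterior trunk, had 9, 1 and 3 counts in WT and 0, 0 and 1 in CdxKO. The ratio of the summed counts, scaled for library size, was 12.9 with a 95% counting interval of 1.94 to 550. Hoxa10, which acts in the lumbar skeleton and the uterus, totalled 3 counts in WT and 1 in CdxKO, a ratio of 2.99 (0.240 to 157). Hoxa6 was at 0 in all 9 libraries, which allows up to 3 counts in each, or 0.0864 to 0.119 CPM. A difference in Hoxa6 or Hoxa10 was not detectable at this depth.

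All 3 CdxKO libraries lay below all 3 WT libraries for 5 of the 8 members with a count: Hoxa3, Hoxa4, Hoxa5, Hoxa9 and Hoxaas3. The same held for 4.20% of the 18902 genes with a count. Of the 5, only Hoxa3 and Hoxa5 had more than 3 counts, the floor used here, in every WT library. The closest WT and CdxKO libraries held 3 against 2 counts for Hoxa4 and 2 against 0 for Hoxaas3. For Hoxa9 they held 1 count each and separated only after scaling for library size. Of 10 fibroblast markers, DESeq2 called 0 between the same groups. With the replicate number in the model 3 were called, Col1a1 and Col1a2 higher in CdxKO and Thy1 lower. Their part in the result was not tested.

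The calls depended on the libraries for Hoxa5 and Hoxaas3. Hoxa3 stayed called when any of the 9 libraries was left out. Hoxa5 lost its call without WT replicate 1 or 3 (adjusted p = 0.810 and 0.0935, DESeq2), CdxKO replicate 2 or 3 (0.192 and 0.251), or T/BraKO replicate 1 or 3 (0.0508 and 0.0585). Hoxaas3 lost it without WT replicate 3 (adjusted p = 0.0688, DESeq2). With the replicate number in the model the 3 calls were the same, where 1.91% of all genes were called lower. The edgeR quasi-likelihood test called 0 of 6 members without the replicate number, with 4 at an unadjusted p under 0.05, where 0.0756% of all genes were called lower. With it, edgeR called 4, the same 3 and Hoxa4, where 1.73% were.

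**Figure D2:**
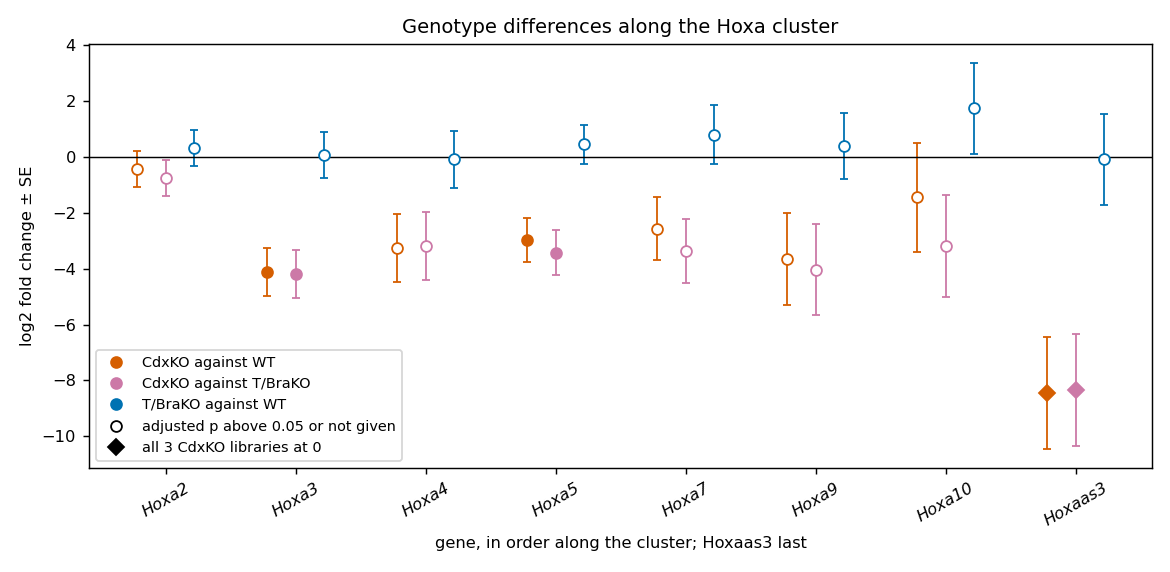
Log2 fold change with its SE for the 8 members with a count, in order along the cluster, for the 3 genotype comparisons. Filled symbols have an adjusted p of at most 0.05 (DESeq2), and diamonds mark Hoxaas3, whose CdxKO libraries were at 0. Hoxa3, Hoxa5 and Hoxaas3 are filled in both comparisons with CdxKO, and no symbol is filled for T/BraKO against WT.

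Hoxa3 and its neighbour Hoxa2 were also compared within each library. The ratio uses the counts already compared above, so it restates that difference and gives no separate support. Hoxa3 had 4.23, 5.79 and 3.07 counts per Hoxa2 count in WT and 4.06, 2.95 and 2.49 in T/BraKO, but 0.396, 0.235 and 0.182 in CdxKO. This ratio is not affected by library size, and the CdxKO libraries did not overlap the others. By an exact permutation test (two-sided, 3 against 3) p was 0.1 for CdxKO against WT and for CdxKO against T/BraKO, the smallest this design allows, and 0.15 after adjustment over the 3 comparisons. T/BraKO and WT overlapped (exact permutation p = 0.2), although in 3 of 3 same-numbered pairs the T/BraKO ratio lay below that of WT. Within such pairs the exact permutation p was 0.25 in each of the 3 comparisons, the smallest that 3 pairs allow. Hoxa2 made up 63.0% to 71.7% of the reads of the coding members in CdxKO and 12.3% to 21.3% in the other 6 libraries.

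**Figure D3:**
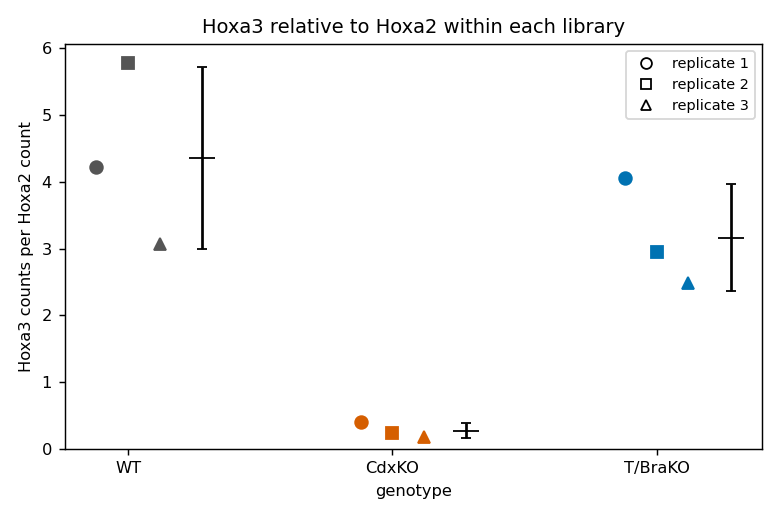
Hoxa3 counts per Hoxa2 count in each library by genotype, with the mean and SD (n = 3) drawn to the right of the points. The CdxKO libraries lie at 0.182 to 0.396 and the other 6 at 2.49 to 5.79.

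No member differed detectably between T/BraKO and WT. DESeq2 called 0 of 8 members between T/BraKO and WT, and 0 had an unadjusted p under 0.05, where 1.08% of all genes were called in either direction. With the replicate number in the model 0 of the 3 members with an adjusted p were called, against 9.68% of all genes. The edgeR test also called 0 of 6, with 0 at an unadjusted p under 0.05, where 0.385% of genes were called, and with the replicate number 0 again, where 9.50% were. The median log2 fold change of the 8 members was 0.35, beside 0 over all genes.

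Hoxa3 had 398, 105 and 201 normalised counts in T/BraKO, which were 1.06, 1.34 and 0.937 times the WT values of the same numbers. Its log2 fold change against WT was 0.08 (95% interval -1.53 to 1.68). Hoxa5 gave 70.6, 19.2 and 45.7 normalised counts in T/BraKO, against 61.9, 12.6 and 25.2 in WT (log2 fold change 0.45, interval -0.92 to 1.81). Hoxaas3 had 116, 13 and 48 counts (log2 fold change -0.09, interval -3.27 to 3.08). The groups overlapped for these 3 members, and the intervals leave room for sizeable changes in either direction. Hoxa2 gave 98.2, 35.7 and 80.7 normalised counts, and Hoxa7 62.9, 2.75 and 34.1. In 4 of the 8 members with a count (Hoxa2, Hoxa5, Hoxa7 and Hoxa10) every T/BraKO library was above the WT library of the same number, as in 21.4% of all genes with a count. Part of this rests on counts at or near the floor of 3. The Hoxa10 pairs held 5 against 1, 2 against 0 and 3 against 2 counts, and the Hoxa7 pair of replicate 2 held 3 against 2.

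Compared directly, the mutants differed in the same 3 members as CdxKO and WT, a comparison with the same CdxKO libraries. Against T/BraKO, CdxKO was lower in Hoxa3 (log2 fold change -4.19, SE 0.85, adjusted p = 7.62e-05, DESeq2), in Hoxa5 (-3.43, SE 0.80, adjusted p = 0.0010) and in Hoxaas3, whose T/BraKO mean was at least 19.8-fold higher (adjusted p = 0.00174). Without T/BraKO replicate 1 that bound was 8.90-fold and the Hoxa3 estimate -3.59, and without CdxKO replicate 1 the estimates were -5.20 for Hoxa3 and -4.04 for Hoxa5. The calls were 3 of the 7 members with an adjusted p, where 0.962% of all genes were called lower. The median log2 fold change of the 8 members with a count was -3.40, beside -0.01 over all genes tested.

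With the replicate number in the model, Hoxa4 (adjusted p = 0.0348, DESeq2) and Hoxa7 (0.0186) joined them, 5 in all, where 6.90% of genes were called lower. Hoxa2 was not called in either model (log2 fold change -0.75, SE 0.63). All 3 CdxKO libraries lay below all 3 T/BraKO libraries for 6 of the 8 members, the 5 named for WT and Hoxa10, as for 6.09% of genes. For Hoxa9 and Hoxa10 the lowest T/BraKO library held 3 and 2 counts, no more than the floor of 3. Hoxa10 had 5, 2 and 3 counts in T/BraKO and 0, 1 and 0 in CdxKO, a ratio of 9.57 with a counting interval of 1.36 to 415. The edgeR test called Hoxa3 alone (adjusted p = 0.0366), where 0.385% of genes were called lower, and with the replicate number it called 5, where 8.52% were. Leaving out any of the 9 libraries lost none of the 3 calls, and Hoxa7 was called in addition without WT replicate 2 or T/BraKO replicate 2 (adjusted p = 0.0241 and 0.00578, DESeq2). In this comparison 3 of 9 fibroblast markers tested were higher in CdxKO and 1 lower, and their part in the result was not tested.

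The members also varied with the replicate number. In T/BraKO the library numbered 1 was highest and that numbered 2 lowest for 8 of 8 members with a count, and in WT for 7 of 8, all but Hoxa10. In CdxKO this held for Hoxa2 alone of 7. The share of all genes with this order was not counted. Libraries of the same number deviated together across genes (r of 0.532 to 0.814), so the order need not be particular to these members. The summed reads of the coding members were 19.6, 3.70 and 11.3 CPM in WT replicates 1, 2 and 3, and 21.2, 5.63 and 12.2 CPM in T/BraKO. CdxKO had 3.30, 1.61 and 1.41 CPM.

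With genotype in the model, replicate 1 was higher than replicate 2 in 5 of the 5 members with an adjusted p (Hoxa2, Hoxa3, Hoxa5, Hoxa7 and Hoxaas3), where DESeq2 called 16.6% of all genes higher. On the log2 scale Hoxa3 differed by 2.08 (SE 0.26, adjusted p = 1.18e-13, DESeq2) and Hoxaas3 by 4.16 (SE 0.60, adjusted p = 1.58e-10). For Hoxaas3 the fit rests on WT and T/BraKO, since CdxKO was at 0. In WT it spanned 127 counts in replicate 1 and 2 in replicate 2, a 73.9-fold ratio of normalised counts with a 95% counting interval of 20.03 to 617. In T/BraKO the ratio was 10.7 (6.04 to 20.8). Without WT replicate 2 the Hoxaas3 estimate was 3.24, and without T/BraKO replicate 2 it was 5.41. Hoxa7 differed by 2.67 (SE 0.82, and 1.68 to 4.21 with a library left out) and Hoxa2 by 1.66 (SE 0.38). In CdxKO, Hoxa7 had 1, 5 and 4 counts, the opposite order of its 31 against 2 in WT and 57 against 3 in T/BraKO, but the difference between genotypes was not tested.

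Replicate 3 was higher than replicate 2 in 4 of 6 members (Hoxa2, Hoxa3, Hoxa7 and Hoxaas3), where 21.8% of genes were called higher. Replicate 1 was higher than replicate 3 in 2 of 5 (Hoxa3 and Hoxaas3), where 9.17% were. Median log2 fold changes of the 8 members were 2.18, 1.09 and 0.93 in these 3 comparisons, beside 0.01, -0.0032 and -6.47e-04 over all genes tested.

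Single libraries carried several of these calls. In replicate 1 against 2, Hoxa2 and Hoxa3 were called with any library left out, which leaves a number with 2 libraries. Hoxa5 and Hoxa7 were lost without WT replicate 1, WT replicate 2 or T/BraKO replicate 2 (3 calls each time). Without T/BraKO replicate 1, Hoxaas3 was lost (adjusted p = 0.0711, DESeq2) and Hoxa7 was given no p. In replicate 3 against 2 the count fell to 0 without WT replicate 3, to 1 without WT replicate 2 or T/BraKO replicate 3, and to 2 without T/BraKO replicate 1. In replicate 1 against 3, Hoxa3 stayed and Hoxaas3 was lost without WT replicate 1 or 3, CdxKO replicate 3, or T/BraKO replicate 1 or 3.

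**Figure D4:**
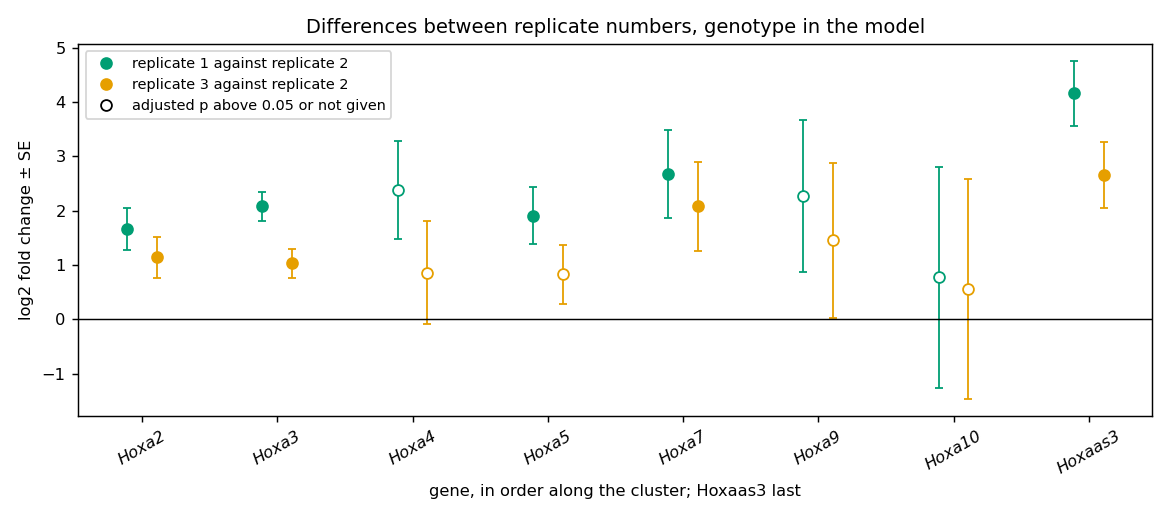
Log2 fold change with its SE between replicate numbers, with genotype in the model, for the 8 members with a count. Filled symbols have an adjusted p of at most 0.05 (DESeq2). Replicate 1 against 2 gives 2.08 for Hoxa3 and 4.16 for Hoxaas3, and all 8 members have positive estimates in both comparisons.

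Other genes followed the same numbers. Of 7 naive pluripotency markers tested, 5 were lower in replicate 1 than in replicate 2, and their summed level was 84.6 to 94.7 CPM in the libraries numbered 2 against 34.8 to 50.1 CPM in the other 6. The share of all genes called lower in replicate 1 than in replicate 2 was not counted. All 8 endoderm and anterior streak markers were higher in replicate 3 than in replicate 2 (70.0 to 84.4 against 18.6 to 30.6 CPM summed), where 21.8% of all genes were. Cdx2 was higher in replicate 1 than in replicate 2 (log2 fold change 1.14, SE 0.08, adjusted p = 6.16e-42, DESeq2), and so was Cdx4 (1.11, SE 0.30, adjusted p = 0.00171). Cdx1 had the opposite sign and was not called (-0.32, SE 0.14, adjusted p = 0.0619, DESeq2). In replicate 3 against replicate 2 Cdx1 was called lower (-0.42, SE 0.14, adjusted p = 0.0080, DESeq2). The part of these markers and Cdx genes in the Hoxa differences was not tested.

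The other Hox clusters gave a point of comparison. Between CdxKO and WT, 8 of 11 Hoxb genes tested were lower and 0 higher (median log2 fold change -4.81), led in adjusted p by Hoxb8 (-7.45, SE 1.04, adjusted p = 1.05e-09, DESeq2) and Hoxb7 (-4.81, SE 0.69). In the Hoxc cluster 4 of 7 were lower, and in the Hoxd cluster 1 of 6, Hoxd4 (-4.34, SE 1.21, adjusted p = 0.0476, DESeq2). Between T/BraKO and WT 0 genes of these 3 lists were called, but with the replicate number in the model 2 Hoxb genes were, 1 higher and 1 lower. That model also called 1 Hoxb gene higher in CdxKO than in WT. Of the 9 TALE cofactors, the MEIS, PBX and PKNOX partners of HOX proteins, Meis2 was higher in CdxKO (1.60, SE 0.34, adjusted p = 9.20e-04, DESeq2) and 0 were lower. With the replicate number Meis3 was lower too (-0.55, SE 0.12, adjusted p = 1.33e-04, DESeq2). Of 14 chromatin regulators of Hox clusters, 0 were called between genotypes without the replicate number. With it Cbx2, a Polycomb subunit, was lower in CdxKO than in WT (-0.19, SE 0.06, adjusted p = 0.0433, DESeq2) and than in T/BraKO, where Suz12 and Kdm6b were higher. Replicate 1 was higher than replicate 2 in 10 of 10 Hoxb and 3 of 4 Hoxc genes tested, and in 0 of 3 Hoxd genes.

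Over the 6 WT and T/BraKO libraries, pairs among Hoxa2, Hoxa3, Hoxa5, Hoxa7 and Hoxaas3 correlated at r of 0.905 to 0.978 on log2 normalised counts. The libraries share their replicate numbers, and between 2.02% and 4.31% of the 14235 genes compared correlated above 0.9 with each of these members. Outside the cluster, the genes most like Hoxa3 were Ubtd2 (r = 0.998), Prdx2 (0.998) and Hoxb7 (0.994). With the CdxKO libraries included, r fell to 0.534 for Ubtd2 and was 0.993 for Hoxb7. Among the genes most like Hoxaas3 were Dact1 (r = 0.996) and Hoxc6 (0.990), and with all 9 libraries r was 0.992 for Hoxc6 and 0.408 for Dact1. Mean normalised counts of Hoxb7 were 167 in WT and 6.09 in CdxKO, and those of Hoxc6 57.5 and 1.03. For Hoxa2, Hoxa5 and Hoxa7 the 3 most alike genes were Nfatc3, Pcsk7 and Ipo11, Spin2c, Madd and Efnb3, and Ikbkap, Mrpl43 and Tm2d2.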

How the data were processed

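Poly(A) RNA of 9 cultures was sequenced as single-end, strand-specific reads. Per the labels and the study's methods, the authors trimmed reads with cutadapt 1.16 and quantified them with STAR 2.5.2a and RSEM 1.3.0 on RefSeq genes of mm10. They deposited expected counts, RSEM's estimates per gene, and TPM, which the authors' software scaled for transcript length within each library. DESeq2 1.16.1 is among the tools named in the submitters' processing notes.

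Expected counts were rounded to whole numbers for R 4.3.3. As in the study's methods, comparisons used DESeq2, here version 1.42.0, with its Wald test on all 9 libraries and genotype as the term. Size factors were the default, fold changes were not shrunken, and p-values were adjusted by Benjamini-Hochberg over all genes tested. Replicate numbers were compared in a model with genotype and number. A normalised count is a count divided by its library's size factor. TPM was used to compare genes and was not tested. Genes to which DESeq2 gave no adjusted p stayed out of counts of calls. Replicates are biological per the labels. With genotype as the only term, p-values measure the spread between them, including what libraries of the same number share. In models with genotype and number, p-values measure the scatter left after both.

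Replicate numbers came from the library titles. Across 12316 genes with a mean of at least 50 normalised counts, deviations from the group mean correlated at 0.532 to 0.814 over the 9 same-numbered pairs of libraries. Over the 18 others they correlated at -0.340 on average. That value largely follows from the first, because deviations within a group sum to 0. The numbers were therefore used as pairs in the fits with the replicate number and in the paired permutation. The main genotype tests did not use them.

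Bounds used a floor of 3 counts per library, 0.0864 to 0.119 CPM. Likeness used log2(normalised count + 1) for genes with a mean of at least 10 normalised counts, naming the 3 genes outside the cluster with the highest r for each member that passed the same minimum. Of each gene list at most the 5 genes of smallest adjusted p could be named. Coordinates are from GENCODE M21 on GRCm38, counted from 1, where 9 of 9 members matched. A few individual genes are left out of this text. The members, lists, motifs and tests were chosen with earlier results of these data known. No pair of libraries of a genotype agreed within sampling noise. The scripts were tested on simulated counts. Alternatives were edgeR 4.0.16 (quasi-likelihood), TMM factors, genes with 10 or more counts in 3 or more libraries, an adjusted p of at most 0.01, the 6 libraries compared, the replicate block and leaving out each library or number. The edgeR fit with the replicate block, the paired permutation and the Hoxaas3 bounds without a library were added after seeing the data.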

Additional observations from a re-analysis of the deposited data

How the results depend on the processing

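Counts of members called were within 1.5 times the reported ones under TMM factors, the count filter and the 6-library fits for all 3 genotype comparisons. Between CdxKO and WT edgeR called 0 members, and leaving out a library, or a replicate number in all genotypes, gave 0 to 4. The 0 came without replicate 3 (Hoxa3 adjusted p = 0.286, DESeq2), a fit with 2 libraries a group. Hoxaas3 also lost its call in the 6-library fit (adjusted p = 0.0672, DESeq2). Between CdxKO and T/BraKO edgeR called 1, the replicate block 5, edgeR with the replicate block 5, and the fits that left out libraries 0 to 4, with 0 again without replicate 3. The replicate block changed no other call of a member. Between T/BraKO and WT every fit called 0. For replicate 1 against 2 the fits without a library called 3 to 5 members, for 3 against 2 they called 0 to 4, and for 1 against 3 they called 1 to 2, with 1 at an adjusted p of at most 0.01.

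Estimates that changed sign were all of members not called. The Hoxaas3 log2 fold change between T/BraKO and WT was 0.25 with the replicate block and 0.044 in edgeR with the block. Over the fits without a library, log2 fold changes between T/BraKO and WT ran from -0.15 to 0.77 for Hoxa2, -0.54 to 0.68 for Hoxa3, -0.98 to 0.93 for Hoxa4, -0.026 to 1.26 for Hoxa5, -0.049 to 1.56 for Hoxa7, -0.17 to 1.66 for Hoxa9 and -1.24 to 1.22 for Hoxaas3. Hoxa2 ran from -0.91 to 0.022 between CdxKO and WT. Hoxa10 ran from -0.21 to 2.01 for replicate 1 against 2, -0.57 to 1.84 for 3 against 2 and -0.40 to 1.20 for 1 against 3, where Hoxa7 ran from -0.081 to 1.18 and Hoxa9 from -0.080 to 1.27. The cause of these changes was not tested. Depth limits Hoxa6, Hoxa9 and Hoxa10, which never exceeded 9 counts in a library.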
